A study of Mus musculus with 12 samples.

Results

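The 6 genes described here, Sox10, Foxd3, Erbb3, S100b, Gfap and Mbp, mark enteric glia and Schwann cells, the supporting cells of the nerves in the gut wall. They were taken by gene symbol as rows of the deposited gene matrix, and the choice was made with earlier results of these data known. Each symbol was found, which makes 6 of the 27785 genes kept. RNA sequencing was done on 12 libraries of mouse rectum. In the Lgr5-Cdx2-Apc group (n = 2) floxed Apc was combined with tamoxifen-inducible Cre recombinase from both Lgr5creER and CDX2creER. The Lgr5-Apc group (n = 4) had floxed Apc with Lgr5creER, and the Cdx2-Apc group (n = 3) had floxed Apc with CDX2creER. Control (n = 3) is called wild type in the sample titles, but the genotype field of these samples names CDX2creER and APC flox, followed by WT in brackets; the labels do not settle which alleles the control mice had. The labels give tamoxifen at 25 mg/kg by intraperitoneal injection on 5 consecutive days in the protocol of every sample, yet the treatment characteristic is missing from the controls. Genotype and tamoxifen cannot be told apart in a comparison with them. Cre from Lgr5 acts in intestinal stem cells and Cre from Cdx2 in hindgut epithelium. Glia derive from another lineage, the neural crest. The age of the mice and whether samples share an animal are not given, so p-values measure only the spread between these samples, which may be technical.

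Enteric glia surround the neurons of the gut's own nervous system, and Schwann cells ensheath the nerve fibres that reach the gut from outside. Both arise from the neural crest under the transcription factor Sox10, which stays on in the mature cells, while Foxd3 acts in the crest cells before them. Erbb3, with its partner Erbb2, receives neuregulin signals from axons that crest-derived glia need to survive and mature. S100b, a calcium-binding protein, and Gfap, an intermediate filament, are the usual stains for enteric glia, and Gfap also marks non-myelinating Schwann cells. Mbp, myelin basic protein, compacts the myelin sheath made by Schwann cells in nerves and by oligodendrocytes in the brain. Several of these genes are not restricted to glia: Erbb3 is a receptor of gut epithelium, and the Mbp locus also gives transcripts in immune cells.

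In GENCODE M21 on GRCm38, the build also called mm10, Sox10 (ENSMUSG00000033006.10) lies at chr15:79154908-79165240 on the minus strand and Foxd3 (ENSMUSG00000067261.4) at chr4:99656299-99658622 on the plus strand. Chromosome 10 holds Erbb3 (ENSMUSG00000018166.8) at chr10:128567523-128589652 on the minus strand and S100b (ENSMUSG00000033208.7) at chr10:76253853-76261159 on the plus strand. Gfap (ENSMUSG00000020932.14) lies at chr11:102887336-102900912 on the minus strand, and the position of Mbp is given with its values. S100b overlaps Dip2a on the opposite strand, Gfap overlaps the long RNA Gm26668 and Mbp the pseudogene Rpl21-ps8, likewise on the opposite strand. The library kit keeps strand, but whether the counting used it is not stated, so reads of these overlapping pairs may not have been separated.

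The promoters of the pair of enteric glial stains are shown because of their values in the Lgr5-Cdx2-Apc libraries: Gfap fell relative to control, and S100b overlapped the controls. The sequences are from RefSeq on GRCm38.p6, which matched 3 of the 6 genes (Foxd3, S100b and Gfap); Sox10, Erbb3 and Mbp were not matched. Each runs from 250 bases before the annotated start through the first 30 bases of the transcript, 5′ to 3′ on the gene's own strand, at chr11:102897171-102897450 (minus strand) for Gfap and chr10:76253586-76253865 (plus strand) for S100b. Capitals mark every match, on either strand, to the core bound by SOX proteins (ACAANG) or to the STAT motif (TTCNNNGAA), the kind of site through which STAT3 activates Gfap in astrocytes.
Gfap: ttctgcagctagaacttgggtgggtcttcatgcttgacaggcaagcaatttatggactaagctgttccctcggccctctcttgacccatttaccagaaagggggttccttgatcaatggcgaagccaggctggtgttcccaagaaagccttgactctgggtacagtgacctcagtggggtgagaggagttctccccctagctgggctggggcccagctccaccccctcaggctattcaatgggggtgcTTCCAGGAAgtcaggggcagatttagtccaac
S100b: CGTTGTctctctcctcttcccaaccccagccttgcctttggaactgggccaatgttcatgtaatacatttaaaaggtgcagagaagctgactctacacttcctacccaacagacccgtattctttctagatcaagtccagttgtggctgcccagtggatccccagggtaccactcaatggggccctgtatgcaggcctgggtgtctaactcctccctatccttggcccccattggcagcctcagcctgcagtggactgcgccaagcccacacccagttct
The Gfap window held no SOX core and 1 STAT match, which reads the same on both strands in its fixed letters and begins at position -2 from the start. The S100b window held 1 SOX core on the opposite strand, beginning at position -250, and no STAT match. Of 32851 promoter windows of the same length, 39.5% held a SOX core and 7.83% a STAT match. These letters are a description of the windows, and GENCODE extends Gfap further upstream than the RefSeq start used here.

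The libraries differed in tissue makeup before any glial gene was considered. FPKM, the unit taken for the deposited values, scales fragments by the length of the transcript and by the mapped total. Total FPKM ran from 451297 to 728462, and depth in reads is unknown. Summed FPKM of 12 smooth muscle genes reached just 110 and 75.3 with both drivers, and ran from 791 to 3774 in Lgr5-Apc, from 1789 to 4838 in Cdx2-Apc and from 3489 to 4341 in control. Columnar epithelial genes, which mark the lining of the rectum, summed to 935 and 176 in Lgr5-Cdx2-Apc, 1119 to 4793 in Lgr5-Apc, 4643 to 5631 in Cdx2-Apc and 3352 to 5393 FPKM in control. Squamous epithelial genes, which mark skin or anal lining, were far above the rest in both Lgr5-Cdx2-Apc libraries (10663 and 20028 FPKM), in Lgr5-Apc replicates 2 and 3 (29465 and 16696) and in control replicate 1 (4571 FPKM, against 94.3 and 69.2 in the other control libraries). Skeletal muscle genes summed to 521 and 619 in Lgr5-Cdx2-Apc and to 557 in Lgr5-Apc replicate 2, and to 57.2 FPKM or less in all other libraries. Of the checked targets, Apc was between 13.5 and 18.8 FPKM throughout, on a measure that does not resolve the floxed exon.

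Levels of the 6 genes spanned a wide range. Averaged over the 12 libraries, Erbb3 stood at 65.0 FPKM, above 96.3% of genes, and Mbp at 18.0 FPKM, above 84.3%. The remaining members were low: Sox10 averaged 0.915, Gfap 0.777, S100b 0.725 and Foxd3 0.437 FPKM, above between 35.6% and 43.2% of genes. FPKM is per length of transcript, so these levels can be set side by side.

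**Figure D1:**
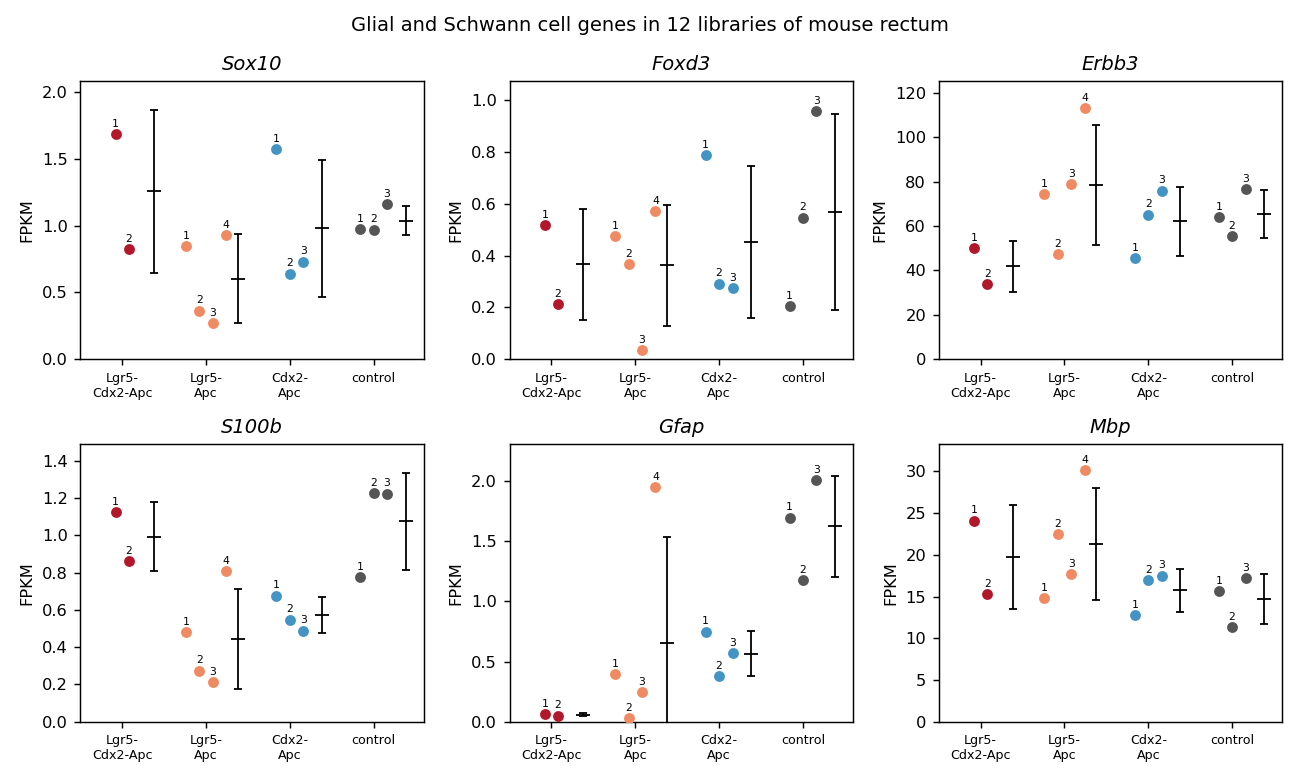
FPKM of the 6 genes in each of the 12 libraries (vertical axes, linear from 0; 1 point per library, marked with its replicate number; the line and bar beside each group are its mean and SD, with the lower end of the bar for Gfap in Lgr5-Apc running past 0). Gfap in both Lgr5-Cdx2-Apc libraries, at 0.0658 and 0.0517 FPKM, lies below every control library, while all 4 groups overlap for Foxd3 and Mbp.

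Gfap was the only member called, and it was lower in the Lgr5-Cdx2-Apc libraries than in control. It was 0.0658 and 0.0517 FPKM there, against 1.70, 1.18 and 2.01 FPKM in control, so these groups did not overlap. The group means were 0.0588 ± 0.00998 FPKM (SD, n = 2) and 1.63 ± 0.419 FPKM (SD, n = 3), a ratio of 0.0361. On the log2(FPKM + 1) scale used for testing, which understates the change of a low gene, the difference was -1.30 ± 0.38 (SE), with an adjusted p of 0.039 by limma. The same fit called 19.1% of all genes tested in this comparison in either direction and 8.55% as lower. Among the 17360 genes tested, which had at least 1 FPKM in at least 2 libraries, Gfap was included through the 3 control libraries and Lgr5-Apc replicate 4, and with no filter its adjusted p was 0.0487. The call was lost (limma, adjusted p between 0.053 and 0.209) when either Lgr5-Cdx2-Apc library, any Cdx2-Apc library or any control library was left out, with log2 differences between -1.43 and -1.19. In bulk tissue, fewer cells of a type and less RNA per cell cannot be told apart.

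Gfap was spread widely in the single-driver groups. It was 0.398, 0.0327, 0.245 and 1.95 FPKM in Lgr5-Apc, so replicate 4 was as high as the controls and replicate 2 was lower than either Lgr5-Cdx2-Apc library. In Cdx2-Apc it was 0.749, 0.381 and 0.569 FPKM, with every library below the lowest control. The log2 difference from control was -0.78 ± 0.32 in Lgr5-Apc (adjusted p = 0.436, unadjusted p = 0.0328, limma) and -0.74 ± 0.34 in Cdx2-Apc (adjusted p = 1, unadjusted p = 0.0525, limma). The 3 comparisons share the control libraries. Set directly against each other, Lgr5-Cdx2-Apc minus Lgr5-Apc gave -0.52 ± 0.36 (adjusted p = 0.352, limma) and Lgr5-Cdx2-Apc minus Cdx2-Apc gave -0.56 ± 0.38 (adjusted p = 0.295, limma), so the fall was not shown to differ from the values of the single-driver groups.

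S100b, the other enteric glial stain, overlapped the controls where Gfap did not. It was 1.13 and 0.862 FPKM with both drivers, against 0.776, 1.23 and 1.22 FPKM in control, and these groups overlapped. Their log2 difference was -0.05 ± 0.22 (adjusted p = 0.878, limma). Lgr5-Apc had 0.480, 0.274, 0.213 and 0.808 FPKM, and Cdx2-Apc had 0.677, 0.548 and 0.489 FPKM. Every Cdx2-Apc library was below the lowest control, and so were 3 of the 4 Lgr5-Apc libraries. The log2 difference from control was -0.53 ± 0.18 in Lgr5-Apc (adjusted p = 0.41, unadjusted p = 0.0142, limma) and -0.40 ± 0.19 in Cdx2-Apc (adjusted p = 1, unadjusted p = 0.0676, limma), neither of which passed. Both Lgr5-Cdx2-Apc libraries were above all Lgr5-Apc libraries, by 0.48 ± 0.21 on the log2 scale, short of the threshold (adjusted p = 0.152, limma).

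Sox10, the transcription factor of the whole glial lineage, was not detectably changed in any comparison. It was 1.69 and 0.825 FPKM in Lgr5-Cdx2-Apc, 0.846, 0.363, 0.271 and 0.931 FPKM in Lgr5-Apc, 1.57, 0.640 and 0.731 FPKM in Cdx2-Apc and 0.977, 0.972 and 1.16 FPKM in control. The controls were close together (1.04 ± 0.110 FPKM, SD, n = 3), and every other group spread more widely. All 4 Lgr5-Apc libraries were below the lowest control, by a log2 difference of -0.37 ± 0.23 with an adjusted p of 0.559 (limma). The Lgr5-Cdx2-Apc libraries fell on either side of the controls, with a log2 difference of 0.12 ± 0.28 (adjusted p = 0.779, limma).

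Foxd3, the early crest factor, never reached 1 FPKM and was left out of the tests by the filter. Its values were 0.519 and 0.213 FPKM in Lgr5-Cdx2-Apc, 0.476, 0.366, 0.0341 and 0.573 FPKM in Lgr5-Apc, 0.790, 0.291 and 0.273 FPKM in Cdx2-Apc and 0.203, 0.547 and 0.959 FPKM in control. The control range covered every library but Lgr5-Apc replicate 3. In the fit with no filter its log2 difference between Lgr5-Cdx2-Apc and control was -0.18 (adjusted p = 0.684, limma).

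Erbb3, the neuregulin receptor, was the most abundant member. It was 49.9 and 33.7 FPKM in Lgr5-Cdx2-Apc, 74.3, 47.3, 78.9 and 113 FPKM in Lgr5-Apc, 45.3, 65.1 and 75.9 FPKM in Cdx2-Apc and 64.0, 55.5 and 76.7 FPKM in control. Both Lgr5-Cdx2-Apc libraries were below all controls, with means of 41.8 ± 11.4 FPKM (SD, n = 2) and 65.4 ± 10.6 FPKM (SD, n = 3). The log2 difference of -0.65 ± 0.34 did not pass (adjusted p = 0.197, limma), nor did that from Lgr5-Apc, -0.85 ± 0.33 (adjusted p = 0.117, limma). Leaving out 1 library at a time gave log2 differences from -1.13 to -0.58 for the second of these. Without Lgr5-Apc replicate 2, which was rich in squamous genes, it was -1.07 and passed (adjusted p = 0.022, limma). With all libraries in the fit it did not pass. The columnar epithelial sums given above were also lowest in the Lgr5-Cdx2-Apc libraries, and their part in the Erbb3 values was not tested.

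Mbp, the myelin protein (ENSMUSG00000041607.17, chr18:82475146-82585637, plus strand), stood at similar levels throughout. It was 24.1 and 15.3 FPKM in Lgr5-Cdx2-Apc, 14.8, 22.5, 17.7 and 30.2 FPKM in Lgr5-Apc, 12.7, 17.0 and 17.5 FPKM in Cdx2-Apc and 15.7, 11.4 and 17.2 FPKM in control. All 4 groups overlapped. The log2 difference from control was 0.38 ± 0.31 in Lgr5-Cdx2-Apc (adjusted p = 0.391, limma) and 0.47 ± 0.26 in Lgr5-Apc (adjusted p = 0.508, limma). Of 4 oligodendrocyte genes looked for, only Mobp was present in the deposited matrix. Mobp was listed at 0 in every library but Lgr5-Apc replicate 2, where it was 0.0237 FPKM.

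**Figure D2:**
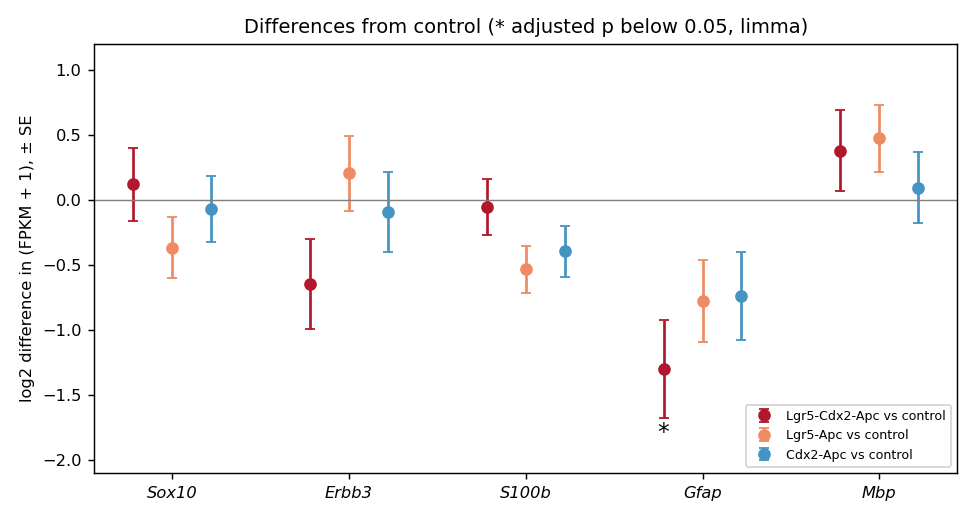
Differences of the 5 tested genes from control in each Apc group (vertical axis, difference in log2(FPKM + 1); points are estimates, bars are 1 standard error from limma, and the star marks an adjusted p below 0.05). Gfap in Lgr5-Cdx2-Apc, at -1.30, is the 1 difference that passed.

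Over the 5 genes tested, limma called 1 in Lgr5-Cdx2-Apc against control, where it called 19.1% of all genes. It called 0 members in each of the other comparisons. The share of all genes called was 0.0115% in Lgr5-Apc against control, 0.0403% in Cdx2-Apc against control, 8.99% in Lgr5-Cdx2-Apc against Lgr5-Apc, 23.8% in Lgr5-Cdx2-Apc against Cdx2-Apc and 0.0346% in Lgr5-Apc against Cdx2-Apc. At an unadjusted p under 0.05, 1 member passed in Lgr5-Cdx2-Apc against control, 2 in Lgr5-Apc against control (Gfap and S100b), 2 in Lgr5-Cdx2-Apc against Lgr5-Apc (Erbb3 and S100b) and 0 in the rest. The shares of all genes at that level were 36.9% in Lgr5-Cdx2-Apc, 10.8% in Lgr5-Apc and 1.64% in Cdx2-Apc against control, 29.4% in Lgr5-Cdx2-Apc against Lgr5-Apc, 39.3% in Lgr5-Cdx2-Apc against Cdx2-Apc, and 10.4% in Lgr5-Apc against Cdx2-Apc. The median log2 difference of the tested members was -0.05 in Lgr5-Cdx2-Apc against control, where it was 0.07 over all genes, and -0.37 in Lgr5-Apc against control, where it was 0.03 over all genes.

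No other enteric glial gene passed the test in the comparison where Gfap fell. Of the 15 genes on a list of enteric glial markers, 12 were tested in Lgr5-Cdx2-Apc against control. Limma called 0 of the 12, where it called 19.1% of all genes. Their median log2 difference was 0.15, and that of all genes 0.07. At an unadjusted p under 0.05 (limma) there were 3 of the 12, against 36.9% of all genes. The 3 included Kcna1, a potassium channel (1.05 ± 0.34, adjusted p = 0.0566, limma), and Ngfr, the low-affinity neurotrophin receptor (1.00 ± 0.45, adjusted p = 0.132, limma). Summed FPKM of the list overlapped between groups, at 32.3 to 36.1 in Lgr5-Cdx2-Apc, 22.6 to 51.0 in Lgr5-Apc, 21.4 to 38.6 in Cdx2-Apc and 29.5 to 39.0 in control. Entpd2, the ectonucleotidase of enteric glia and the most abundant gene on the list, was 11.0 and 7.21 FPKM in Lgr5-Cdx2-Apc, against 7.80, 10.5 and 14.6 FPKM in control. Sox2, next in abundance, is also expressed by squamous epithelium. It was 0.265 and 1.15 FPKM in Lgr5-Cdx2-Apc. It was 26.0 and 9.34 FPKM in Lgr5-Apc replicates 2 and 3 and 15.5 FPKM in control replicate 1, whose squamous sums were high, and 2.46 FPKM or less in the remaining libraries of these groups and of Cdx2-Apc.

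Kcna1 was highest in the Lgr5-Cdx2-Apc libraries. It was 3.16 and 1.79 FPKM there, 0.961, 0.588, 0.195 and 0.270 FPKM in Lgr5-Apc, 1.09, 0.272 and 0.574 FPKM in Cdx2-Apc and 0.151, 0.791 and 1.18 FPKM in control. Both Lgr5-Cdx2-Apc libraries were above the other 10. Its log2 difference passed against Lgr5-Apc, at 1.21 ± 0.33 (adjusted p = 0.0469, limma), and against Cdx2-Apc, at 1.08 ± 0.34 (adjusted p = 0.0452, limma). Limma called 2 of the 12 glial genes as higher against Lgr5-Apc and 1 against Cdx2-Apc, and 0 as lower in either. Of all genes, 5.22% were called as higher against Lgr5-Apc and 12.1% against Cdx2-Apc. The calls of Kcna1 were marginal: leaving out 1 library ended that against Lgr5-Apc in 10 of 12 cases and that against Cdx2-Apc in 6 of 12, with adjusted p up to 0.254 and 0.252, both without Lgr5-Cdx2-Apc replicate 1. Of the 6 other alternatives, 5 ended the call against Lgr5-Apc and 3 that against Cdx2-Apc.

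**Figure D3:**
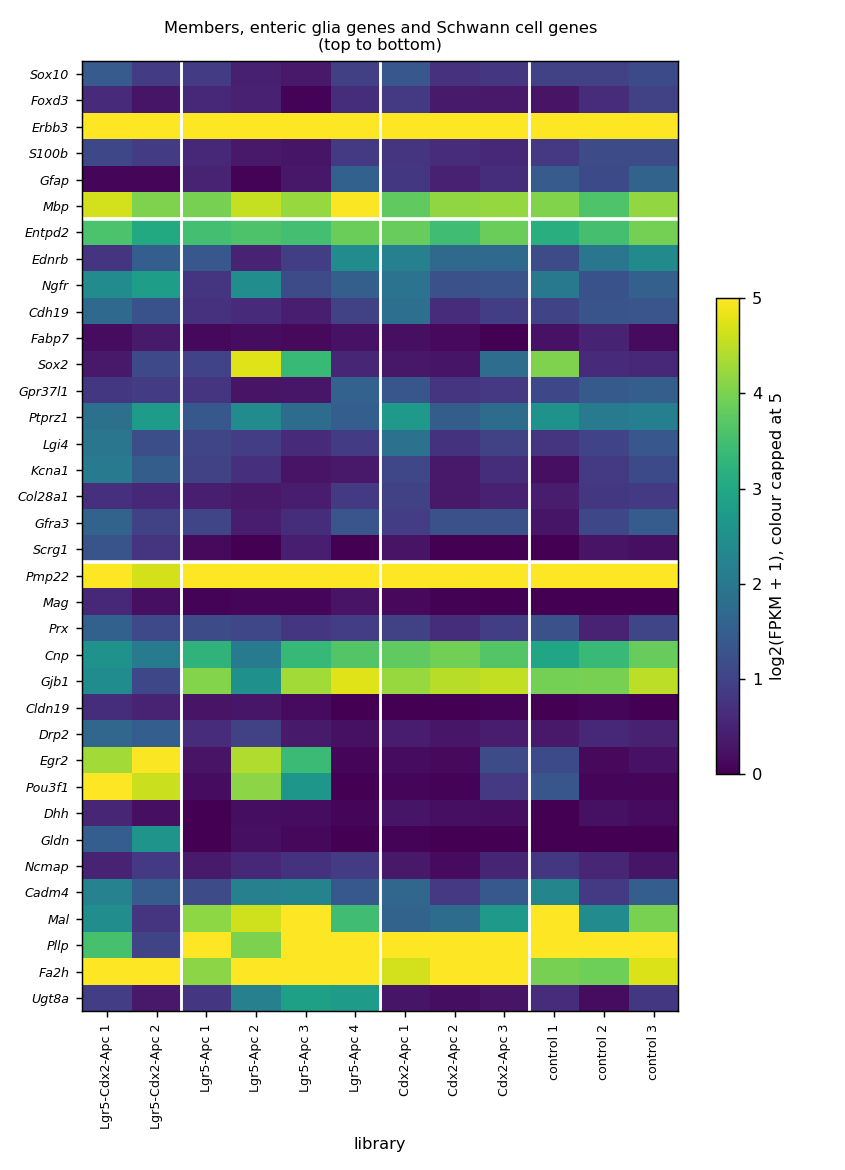
Levels of the 6 members and of genes of the enteric glial and Schwann cell lists in each library, on the log2(FPKM + 1) scale (colour, capped at 5; genes down the page, libraries across, white lines between lists and groups). Gldn and Drp2 are higher in both Lgr5-Cdx2-Apc libraries than in any other, and Gldn reaches 4.99 FPKM in Lgr5-Cdx2-Apc replicate 2.

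Genes of myelinating Schwann cells moved in both directions. Of 18 genes on the list, 14 were tested in Lgr5-Cdx2-Apc against control, and limma called 5 as higher and 3 as lower, with a median log2 difference of 0.35. Over all genes in that comparison, 10.5% were called as higher and 8.55% as lower. Gldn, gliomedin, which gathers sodium channels at the nodes of Ranvier, was 1.83 and 4.99 FPKM in Lgr5-Cdx2-Apc and was listed at 0 in all 3 controls. It did not exceed 0.159 FPKM in the other groups. Drp2, a dystrophin relative on the outer face of Schwann cells, was 2.16 and 1.83 FPKM in Lgr5-Cdx2-Apc, against 0.273, 0.464 and 0.383 FPKM in control, a log2 difference of 1.12 ± 0.23 (SE). Gldn and Drp2 are 2 of the 5 genes called as higher, but they passed the filter on low values through the 2 Lgr5-Cdx2-Apc libraries alone, so their calls in that fit support nothing. In the fit with no filter, their adjusted p was 0.000964 and 0.00857 (limma). Mag, the myelin-associated glycoprotein, was too low to be tested, at 0.497 and 0.159 FPKM in Lgr5-Cdx2-Apc and listed at 0 in all 3 controls.

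The remaining calls of the Schwann list fell on genes that epithelium also expresses. Fa2h, a fatty acid hydroxylase of myelin and skin lipids, was 118 and 204 FPKM in Lgr5-Cdx2-Apc, against 14.8, 14.0 and 25.7 FPKM in control (log2 difference 3.08 ± 0.61, adjusted p = 0.0114, limma). Egr2 and Pou3f1, transcription factors of myelination that skin also uses, rose by 4.15 ± 1.14 (adjusted p = 0.0327, limma) and 4.30 ± 1.06 (adjusted p = 0.0227, limma), and neither passed with a pseudocount of 0.1 (0.0619 and 0.0556). Both were also high in the squamous-rich Lgr5-Apc replicates 2 and 3, where Egr2 was 20.2 and 9.65 FPKM and Pou3f1 was 16.5 and 5.25 FPKM. In control, whose replicate 1 was squamous-rich too, Egr2 did not exceed 1.17 FPKM and Pou3f1 did not exceed 1.53 FPKM. The genes that fell were Pllp (-3.30 ± 0.73, adjusted p = 0.0163, limma), Gjb1, a gap junction protein (-2.38 ± 0.58, adjusted p = 0.0224, limma), and Pmp22 (-2.02 ± 0.58, adjusted p = 0.038, limma). Pllp was 10.7 and 1.05 FPKM in Lgr5-Cdx2-Apc and 15.3 FPKM in Lgr5-Apc replicate 2, and 37.9 FPKM or more elsewhere, and the columnar epithelial sum was lowest in the same 3 libraries. The part of epithelium in these values was not tested. The calls of Fa2h, Pllp and Gjb1 were lost without Lgr5-Cdx2-Apc replicate 2 (adjusted p = 0.135, 0.168 and 0.209), that of Pllp also without control replicate 3 (0.0568) and that of Gjb1 also without control replicates 2 or 3 (0.0563 and 0.073). Those of Egr2 and Pou3f1 were lost without either Lgr5-Cdx2-Apc library or control replicates 2 or 3 (adjusted p between 0.0693 and 0.205), and that of Pmp22 in 8 of 12 cases (up to 0.301).

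Against the single-driver groups the pattern of the Schwann list held calls in both directions again. Lgr5-Cdx2-Apc against Lgr5-Apc gave 2 genes higher (Drp2 and Gldn) and 2 lower (Gjb1 and Pllp), though Drp2 and Gldn again passed the filter through the Lgr5-Cdx2-Apc libraries alone. The call of Drp2 was lost with only the compared groups in the fit (adjusted p = 0.146), with the replicate number as a block (0.0839), with a pseudocount of 0.1 (0.0556) and without Lgr5-Apc replicate 3 (0.0578), and that of Gldn with only the compared groups in the fit (0.066). In that comparison, 5.22% of all genes were called as higher and 3.77% as lower. Lgr5-Cdx2-Apc against Cdx2-Apc gave 6 higher and 4 lower, where 12.1% of all genes were called as higher and 11.7% as lower. Those higher again held Drp2 and Gldn, which passed the filter through the Lgr5-Cdx2-Apc libraries alone, so their calls in that fit support nothing. With no filter, their adjusted p against Cdx2-Apc was 0.00526 and 0.00093 (limma). Among those lower was Cnp, a myelin enzyme also found in other cells (-1.47 ± 0.42, adjusted p = 0.0323, limma); its call was lost without either Lgr5-Cdx2-Apc library or any Cdx2-Apc library (adjusted p between 0.0647 and 0.217). In Lgr5-Apc against control, Cdx2-Apc against control and Lgr5-Apc against Cdx2-Apc, limma called 0 genes on the enteric glial, Schwann cell and neuregulin lists; in that order, 1, 0 and 0 genes on the glial list, 2, 1 and 2 on the Schwann list and 0, 0 and 1 on the neuregulin list reached an unadjusted p under 0.05.

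Among the ligands and partners of Erbb3, 4 of 6 were tested. Nrg2 was 1.04 and 1.13 FPKM in Lgr5-Cdx2-Apc, against 0.280, 0.106 and 0.185 FPKM in control, a log2 difference of 0.81 ± 0.21 (SE). It passed the filter through the 2 Lgr5-Cdx2-Apc libraries alone, so its call in that fit supports nothing; with no filter its adjusted p was 0.0178 (limma). Nrg4 was 4.12 and 5.21 FPKM in Lgr5-Cdx2-Apc, against 0.326, 0.139 and 0.487 FPKM in control (2.11 ± 0.56, adjusted p = 0.030, limma). It was also 4.73 FPKM in Lgr5-Apc replicate 2. Neither call held with a pseudocount of 0.1 (0.0625 for Nrg2 and 0.0517 for Nrg4) or without control replicate 2 or control replicate 3 (adjusted p between 0.0711 and 0.0842), and that of Nrg4 was lost without either Lgr5-Cdx2-Apc library (0.105 and 0.196). Nrg1, the neuregulin that Schwann cells depend on, was 1.08 and 4.40 FPKM in Lgr5-Cdx2-Apc, against 1.19, 1.43 and 2.31 FPKM in control, and the groups overlapped. Erbb2, which signals as a pair with Erbb3, was 47.9 and 37.0 FPKM in Lgr5-Cdx2-Apc and 48.0, 30.8 and 50.3 FPKM in control.

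Some genes of the neurons that enteric glia accompany fell in the Lgr5-Cdx2-Apc libraries. Of 18 enteric neuron genes, 15 were tested against control, and limma called 6 as lower and 0 as higher, against 8.55% and 10.5% of all genes. The median log2 difference of the list was -1.54, and that of all genes 0.07. Vip, a neuropeptide of inhibitory motor neurons, was 0.131 and 0.211 FPKM in Lgr5-Cdx2-Apc, against 6.0, 14.7 and 14.8 FPKM in control (-3.36 ± 0.76, adjusted p = 0.0172, limma). Snap25, of the synaptic release machinery, fell by 2.66 ± 0.66 (adjusted p = 0.0238, limma), and Uchl1, a pan-neuronal enzyme, by 3.23 ± 0.94 (adjusted p = 0.0389, limma). Hand2, Tac1 and Nefl were the other 3. Chat, on the same list but left out of the tests by the filter, went the other way. It was 0.342 to 1.75 FPKM in Lgr5-Cdx2-Apc and 0.0388 to 0.316 FPKM in control. The count of 6 became 0 without either Lgr5-Cdx2-Apc library or without control replicate 3, and 1 without control replicate 2, while leaving out Lgr5-Apc replicate 2 gave 10 and leaving out its replicate 4 gave 11. The summed FPKM of the list was 7.41 and 6.47 in Lgr5-Cdx2-Apc, 39.1, 5.95, 23.0 and 132 in Lgr5-Apc, 126, 69.7 and 50.5 in Cdx2-Apc and 46.2, 83.2 and 105 in control. The library with the least neuron signal in Lgr5-Apc, replicate 2, also had the least Gfap there, and replicate 4 had the most of both. Across groups the order differed: the neuron sum was 126 and Gfap 0.749 FPKM in Cdx2-Apc replicate 1, and 46.2 and 1.70 FPKM in control replicate 1. The smooth muscle sum was 940 in Lgr5-Apc replicate 4 and 3774 in its replicate 1, with Gfap at 1.95 and 0.398 FPKM. The part of nerve or muscle content in the Gfap values was not tested.

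Melanocytes are another crest-derived cell type that uses Sox10. Of 10 melanocyte genes 2 were tested in Lgr5-Cdx2-Apc against control. Mitf, the master factor of the lineage, rose by 1.38 ± 0.33 (adjusted p = 0.0211, limma). Dct, a pigment enzyme, differed by 1.10 ± 0.20 (SE), but it passed the filter through the 2 Lgr5-Cdx2-Apc libraries alone; with no filter its adjusted p was 0.00162 (limma). The call of Mitf was lost without either Lgr5-Cdx2-Apc library or without control replicates 2 or 3 (adjusted p between 0.0551 and 0.134). Summed FPKM of the list was 7.84 and 10.2 in Lgr5-Cdx2-Apc and 1.50 to 3.06 elsewhere. Mitf alone averaged 4.93 FPKM in Lgr5-Cdx2-Apc. The defining genes Tyr, Tyrp1 and Mlana were listed at 0 in all 3 controls and all 3 Cdx2-Apc libraries. In Lgr5-Cdx2-Apc they ran from 0.0335 to 0.286, from 0.337 to 1.35 and from 0 to 0.996 FPKM. Slc45a2 ran from 0.0354 to 0.109 FPKM in Lgr5-Cdx2-Apc and was listed at 0 in all libraries of the other groups. Some other genes on the list did not separate Lgr5-Cdx2-Apc from control. Pmel was 0.489 to 1.16 FPKM in Lgr5-Cdx2-Apc and 0.292 to 0.692 FPKM in control, and Gpr143 was listed at 0 in both groups. In Lgr5-Cdx2-Apc replicate 1 the melanocyte sum was 7.84 and Sox10 1.69 FPKM, and in replicate 2 they were 10.2 and 0.825 FPKM; the part of melanocytes in the Sox10 values was not tested. Lymphocyte genes, of cells that may express Mbp transcripts, summed to 34.6 and 36.8 FPKM in Lgr5-Cdx2-Apc and to 1.84 to 10.9 FPKM elsewhere.

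**Figure D4:**
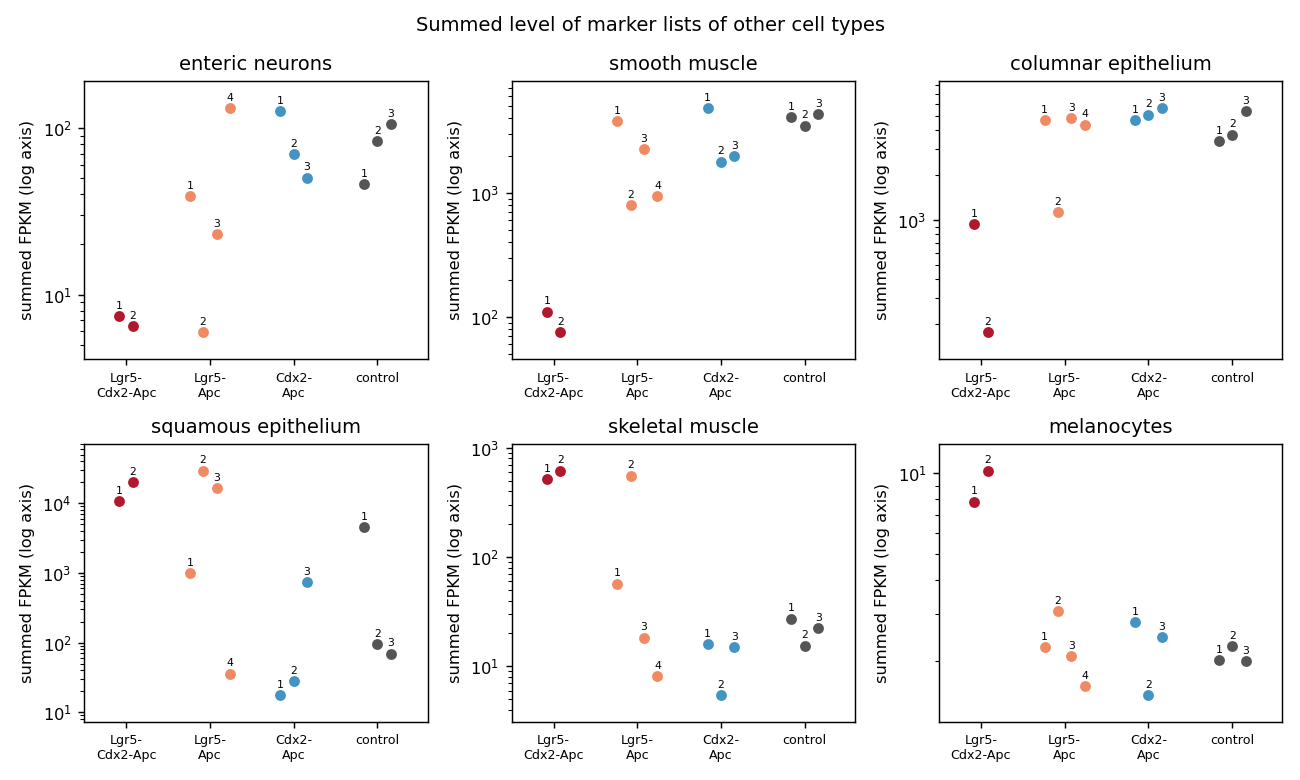
Summed FPKM of 6 marker lists of other cell types in each library (vertical axes, log scale; 1 point per library, marked with its replicate number). Smooth muscle and columnar epithelium are lowest and melanocyte genes highest in the Lgr5-Cdx2-Apc libraries, and enteric neuron genes are low there and in Lgr5-Apc replicate 2, at 5.95.

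Genes whose values over the 12 libraries were most like those of each member differed from member to member. Among 12916 genes, Sox10 was closest to Cdh19, a cadherin of Schwann cell precursors (Pearson r of log2(FPKM + 1) = 0.93), followed by Cep120 (0.90), Abca8b (0.89), Slc24a3 (0.88) and Rgs9 (0.88). S100b was closest to Lgr5 (0.87), the stem cell gene whose promoter drives Cre in 2 of the groups, and then to Adam23 (0.87), Armcx3 (0.86), Aif1 (0.83) and S1pr3 (0.82). Gfap was closest to Agtr1a, an angiotensin receptor (0.89), with Thnsl1 (0.88), Wdr44 and Gulp1 (each 0.87). Erbb3 lay with Ccdc71l, Slc17a5 and Trim25 (each 0.96), Fermt1 and Herc3 (each 0.95). Mbp lay with Sptssb (0.94), Gpr107 (0.93) and Tmigd1 (0.93), Mdm1 (0.91) and Nuak2 (0.90). No gene was among the 5 nearest of more than 1 member. The points share their library makeup, so these values are a description.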

How the data were processed

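RNA of 12 mouse rectum samples was extracted with RNeasy Plus, treated with DNase and made into NEBNext Ultra II Directional libraries, per the labels' protocols. STAR, Cufflinks, Cuffdiff and the mm10 build are named, per the submitters' processing notes; their versions and the annotation are not given in the sources used here. The authors deposited 1 FPKM value per gene and library. The header names no unit, and the values were checked against it. Depth in reads is unknown, so no counting interval was computed.

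The table had 27831 lines. Of these, 25 carry names a spreadsheet turned into dates and were kept unnamed. Counting date names, 46 symbols were repeated, and the highest mean was kept for the others, which left 27785 genes. The 17360 genes that reached 1 FPKM in 2 or more libraries were tested on log2(FPKM + 1) with limma 3.58.1 in R 4.3.3, with 1 term per group, all 12 libraries and moderation along the intensity trend. The 6 pairwise comparisons were two-sided, and a gene was called at a Benjamini-Hochberg adjusted p below 0.05 within its comparison. The procedure was tested on simulated data.

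The members and lists were chosen with earlier results of these data known. Besides the members, the text names from each list up to 6 genes with the smallest p in Lgr5-Cdx2-Apc against control and the 2 with the highest mean, and for each tested member the 5 genes with the highest Pearson r. Egr2, Mag, Cnp, Chat and the melanocyte genes at 0 were named after their values were seen. Some genes that the rule took are not reported here. Promoters came from RefSeq on GRCm38.p6. Alternatives were another pseudocount, other filters, median-of-ratios scaling, the compared groups alone, a replicate block and leaving out libraries.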

Additional observations from a re-analysis of the deposited data

How the results depend on the processing

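Gfap kept its fall in Lgr5-Cdx2-Apc against control under every alternative that tested it, and its call under those that left out no single library; with genes averaging at least 5 FPKM it was not tested and 0 members were called. Leaving out 1 library gave 0 to 1 members called in that comparison and in Lgr5-Cdx2-Apc against Lgr5-Apc. Leaving out Lgr5-Apc replicates 2 and 3 and control replicate 1 together, the libraries outside Lgr5-Cdx2-Apc with the highest squamous sums, was chosen after seeing the data: 1 member (Erbb3) was then called in Lgr5-Cdx2-Apc against Lgr5-Apc, and Gfap (0.38) and S100b (0.060) turned positive in Lgr5-Apc against Cdx2-Apc. With the replicate block, Gfap was -1.26 in Lgr5-Cdx2-Apc against control (adjusted p = 0.0153, limma) and Mbp turned to 0.14 in Lgr5-Cdx2-Apc against Lgr5-Apc; the block was not used because the 15 same-number pairs of libraries had a median correlation of -0.02.

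Counts over all genes moved more. In Lgr5-Cdx2-Apc against control, 3315 became 1925 with the stricter filter and 5412 without those 3 libraries, and 50 to 4678 leaving out 1 library. Against Lgr5-Apc, 1560 became 502 with the stricter filter, 162 with the compared groups alone, 579 with the block and 4891 without those 3 libraries (41 to 4453 leaving out 1). Against Cdx2-Apc, 4132 became 2694 with the stricter filter (109 to 5324 leaving out 1). Lgr5-Apc against control gave 2, then 1 with the stricter filter, 0 with the block and 9 without those 3 libraries (1 to 32 leaving out 1). Cdx2-Apc against control gave 7, then 2 with a pseudocount of 0.1, 2 with the stricter filter, 1 with the compared groups alone and 2 with the block (6 to 22 leaving out 1). Lgr5-Apc against Cdx2-Apc gave 6, then 1 with the stricter filter and 11 without those 3 libraries (6 to 14 leaving out 1). On the lists in Lgr5-Cdx2-Apc against control, the 5 Schwann genes called as higher became 3 with a pseudocount of 0.1 or the stricter filter, the 2 neuregulins 0 with either, the 2 melanocyte genes 0 with the stricter filter, and the 6 neuron genes called as lower 3 with the stricter filter, 11 with the compared groups alone and 10 without those 3 libraries. The 0 glial genes became 1 higher with no filter or without those 3 libraries, and 1 lower with the compared groups alone. The cause was not tested beyond the smaller numbers of genes or samples.

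Small differences of members changed sign when 1 library was left out. In Cdx2-Apc against control these were Erbb3 (-0.25 to 0.11), Mbp (-0.069 to 0.23) and Sox10 (-0.27 to 0.052), in Lgr5-Apc against Cdx2-Apc Gfap (-0.36 to 0.15), in Lgr5-Cdx2-Apc against Cdx2-Apc Mbp (-0.026 to 0.60) and Sox10 (-0.088 to 0.47), in Lgr5-Cdx2-Apc against control S100b (-0.16 to 0.042) and Sox10 (-0.16 to 0.40), and in Lgr5-Cdx2-Apc against Lgr5-Apc Mbp (-0.40 to 0.22). Values under 1 FPKM rest on an unknown number of reads, and the Lgr5-Cdx2-Apc group has 2 libraries.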
